A study of Homo sapiens with 18 samples.

Results

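The 9 subunits of the human ESCRT-I complex, TSG101, VPS28, VPS37A, VPS37B, VPS37C, VPS37D, MVB12A, MVB12B and UBAP1, were followed at the mRNA level in cells that had been depleted of TSG101 or of VPS28. Members were the targets whose RefSeq identifier maps to one of these symbols, and each subunit had 1 target among the 20802 on the panel. The cells were RKO, an established human colorectal carcinoma line, given 30 nM of one Silencer Select siRNA and harvested 72 h later. siCtrl#1 and siCtrl#2 were nontargeting, siTsg101#1 and siTsg101#2 were directed against TSG101, and siVps28#1 and siVps28#2 against VPS28. Each of the 6 siRNA groups held 3 libraries, 1 per batch, so that the libraries of one batch share a replicate number, and the study describes them as independent experiments. All cells, controls included, had been transfected, and no untransfected cells were analysed here. The data used here hold mRNA only, from a single cell line. From Western blots of RKO cells the study reports that loss of either targeted protein strongly lowered the other, which it attributes to destabilization of the complex.

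ESCRT-I is an elongated complex that works on endosomes and in other membrane events in which a bud is pinched off away from the cytosol. TSG101 binds ubiquitinated cargo and short peptide motifs of its partners, VPS28 connects the complex to ESCRT-II, and one of the VPS37 paralogs joins both in the core. A further subunit, one of the MVB12 paralogs or UBAP1, completes each complex, so that alternative members of the VPS37 and MVB12 families give different versions of ESCRT-I.

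The panel's targets received from 2561790 to 7466916 counted reads in each library. Within a siRNA group the correlation of log2 library-scaled read counts (CPM) over tested genes was 0.964 to 0.988. Between groups it was 0.925 to 0.980, and no library repeated another. Of the 9 epithelial and colon markers, KRT8, KRT18, EPCAM and CDX2 were read in all libraries, whereas CDH1 and CDH17 had no read and KRT19, KRT20 and VIL1 did not exceed 0.332 CPM. The summed epithelial list lay at 127 to 166 CPM with nontargeting siRNAs, 93.9 to 119 CPM with siTsg101 and 97.0 to 145 CPM with siVps28. PTPRC and CD3E were at 0 in every library, the summed fibroblast list did not exceed 1.54 CPM and the endothelial list 0.525 CPM. CD68, a lysosomal membrane protein that is also used as a macrophage marker, was read at 514 to 1050 CPM with nontargeting siRNAs, 1090 to 1666 CPM with siTsg101 and 688 to 1622 CPM with siVps28. The part of these marker differences in the results below was not tested.

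Values below are CPM after TMM normalization, and they are compared between libraries for one gene at a time. The panel reads a single short amplicon of each transcript, so that CPM of different genes cannot be set against each other. Log2 fold changes come from edgeR's quasi-likelihood fit of all 18 libraries, and adjusted p-values are Benjamini-Hochberg values over the 10213 genes tested. The standard errors (SE) and 95% intervals of the fold changes were derived from the F statistics of that fit. Genes that moved by at least 1.5-fold and had an adjusted p under 0.05 are termed called. Tsg101 depletion and Vps28 depletion denote the mean of the 2 siRNAs against a gene minus siCtrl#1, and they share the siCtrl#1 libraries. All 9 subunits had more than 100 counts in total and were tested.

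TSG101, the ubiquitin-binding subunit, lies on the minus strand of chromosome 11 (18489883 to 18548498, GRCh37) and has 10 exons. With siCtrl#1 its mRNA was read at 78.4, 158.6 and 117.6 CPM, and with siCtrl#2 at 140.7, 74.5 and 94.2 CPM. With siTsg101#1 it was at 3.27, 3.67 and 4.75 CPM and with siTsg101#2 at 2.81, 2.49 and 4.99 CPM, from 8 to 34 reads per library. The siTsg101 libraries lay far below all others and did not overlap them. Tsg101 depletion lowered the mRNA 31.4-fold (log2 fold change -4.97, SE 0.26, edgeR adjusted p = 6.11e-12), by the largest fall among the genes tested. In bulk RNA, fewer cells that express a gene and less of its RNA per cell cannot be told apart. With siVps28#1 TSG101 stood at 107.1, 112.1 and 131.2 CPM and with siVps28#2 at 91.8, 95.5 and 166.6 CPM, within or close to the range of the nontargeting libraries. Its log2 fold change upon Vps28 depletion was -0.0061 with a 95% interval from -0.46 to 0.45.

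VPS28, the subunit that contacts ESCRT-II, lies on the minus strand of chromosome 8 (145648984 to 145653946, GRCh37) and has 10 exons. Its mRNA was read at 109.9, 111.9 and 87.9 CPM with siCtrl#1 and at 86.1, 73.8 and 65.1 CPM with siCtrl#2. With siVps28#1 it was at 3.48, 5.76 and 7.78 CPM and with siVps28#2 at 5.68, 7.43 and 5.21 CPM, below every other library. Vps28 depletion lowered it 17.3-fold (log2 fold change -4.11, SE 0.17, edgeR adjusted p = 3.71e-14). With siTsg101#1 VPS28 stood at 88.4, 95.7 and 98.0 CPM and with siTsg101#2 at 83.5, 103.7 and 92.4 CPM, between the nontargeting groups. The log2 fold change upon Tsg101 depletion was -0.14 with a 95% interval from -0.45 to 0.18, so that depletion of either subunit left no called change in the mRNA of the other. These values say nothing of the protein. The siCtrl#2 group had the lowest mean outside the siVps28 groups (75.0 CPM, -0.46 against siCtrl#1, SE 0.18), a difference that did not pass the test (adjusted p = 0.209).

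**Figure D1:**
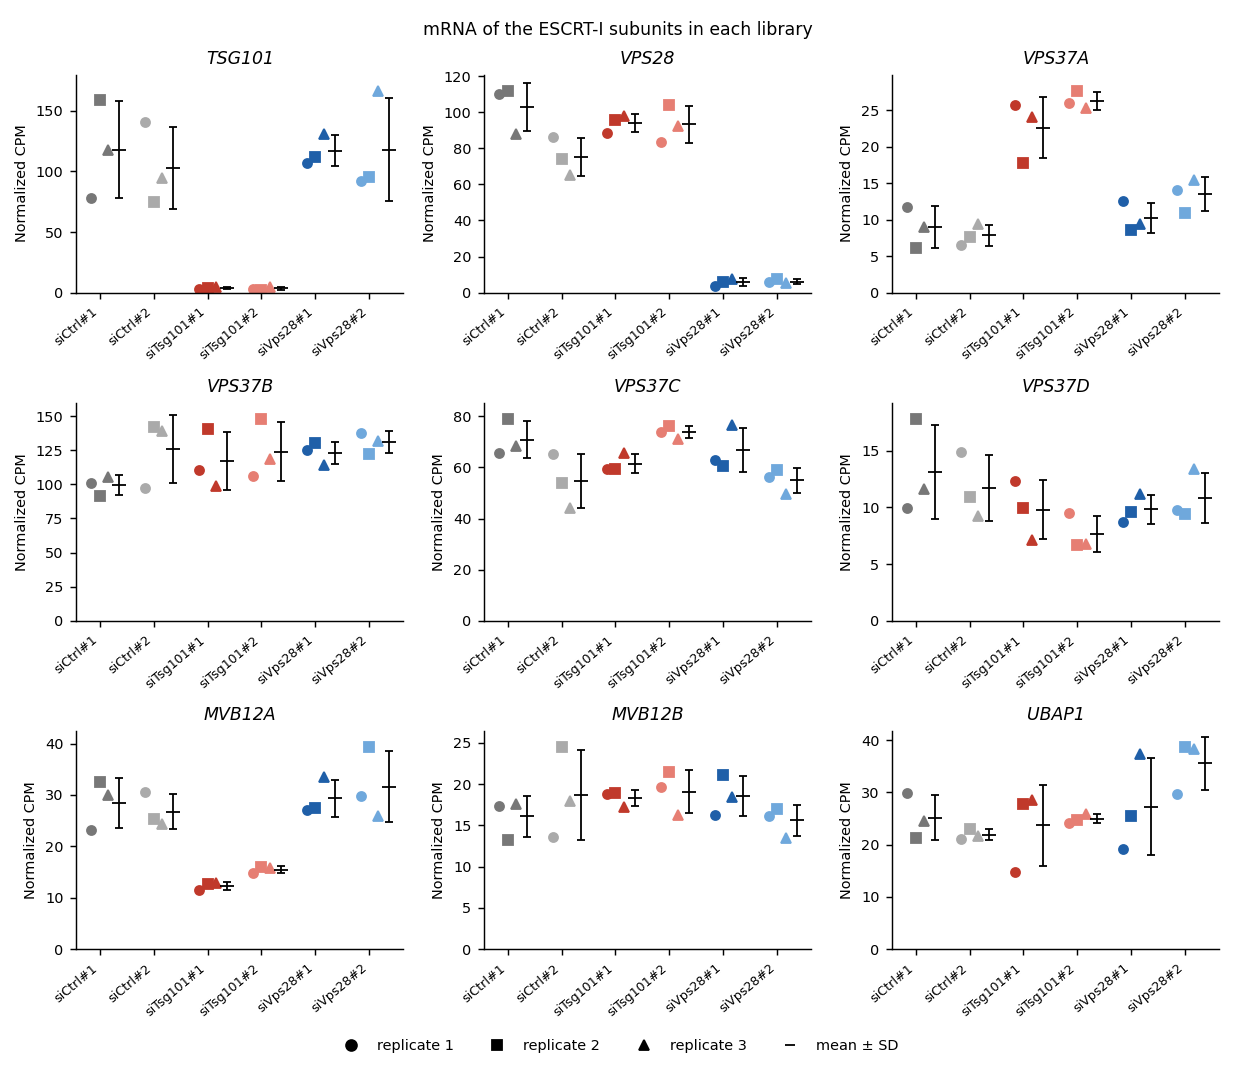
Normalized CPM of each ESCRT-I subunit in the 18 libraries, by siRNA group, on axes that start at 0. Symbols are single libraries by replicate number, and the bar beside each group is its mean ± SD (n = 3). TSG101 is at 2.49 to 4.99 CPM with siTsg101 and VPS28 at 3.48 to 7.78 CPM with siVps28, VPS37A is at 17.8 to 27.7 CPM with siTsg101 against 6.15 to 11.8 CPM with nontargeting siRNAs, and MVB12A is at 11.5 to 15.9 CPM with siTsg101 against 23.1 to 32.6 CPM.

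Of the 8 subunits that were not the target, VPS37A rose and MVB12A fell upon Tsg101 depletion, and none was called upon Vps28 depletion. Both changes were present with either siRNA against TSG101 and were larger than after loss of VPS28. The 2 of 8 called (25.0%) stand beside 19.4% of all tested genes called upon Tsg101 depletion, and 1 subunit was higher where 11.1% of tested genes were called higher. The 0 of 8 upon Vps28 depletion stand beside 12.3%, with 1 subunit at an unadjusted p under 0.05 in edgeR and also 0 called by DESeq2. The median log2 fold change of the 8 subunits was -0.056 upon Tsg101 depletion and 0.085 upon Vps28 depletion, next to -0.0087 and 0.0084 over all genes tested. The share of subunits called was thus near the background, and the values of single subunits follow.

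VPS37A, a member of the VPS37 family of core subunits, lies on the plus strand of chromosome 8 (17104440 to 17159936, GRCh37) and has 12 exons. Its mRNA was at 11.8, 6.15 and 9.06 CPM with siCtrl#1 and at 6.57, 7.67 and 9.44 CPM with siCtrl#2. With siTsg101#1 it was at 25.8, 17.8 and 24.1 CPM, and with siTsg101#2 at 26.0, 27.7 and 25.3 CPM. Each of the 6 siTsg101 libraries was above each of the other 12, without overlap. With siVps28#1 VPS37A stood at 12.5, 8.64 and 9.38 CPM and with siVps28#2 at 14.1, 10.9 and 15.4 CPM, 3 of these 6 libraries above the highest nontargeting one. The values rest on 20 to 178 reads per library.

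VPS37A mRNA rose 2.66-fold upon Tsg101 depletion (log2 fold change 1.41, SE 0.21, 95% interval 0.98 to 1.85, edgeR adjusted p = 2.86e-05). The change was 1.30 with siTsg101#1 and 1.53 with siTsg101#2. Upon Vps28 depletion the log2 fold change was 0.35 (SE 0.21, 95% interval -0.089 to 0.80, adjusted p = 0.29), from 0.15 with siVps28#1 and 0.56 with siVps28#2. The siVps28#2 value did not pass against siCtrl#1 (adjusted p = 0.118), but it was called with siCtrl#2 as the reference (0.76, adjusted p = 0.0448) and with the mean of both nontargeting siRNAs (0.66, adjusted p = 0.0263). A rise as large as that upon Tsg101 depletion was seen for 255 of the 10213 genes, VPS37A included, or 2.50%. Of the 4519 bases of the VPS37A transcript, 1231 overlap exons of MTMR7 on the opposite strand, and MTMR7 itself had no read in any library. In stretches of 50 bases, the VPS37A transcript shares 1497 bases with MTMR7 and a gene without a symbol, which was not examined.

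MVB12A, one of the MVB12 paralogs that complete the complex and carry a membrane-binding domain, lies on the plus strand of chromosome 19 (17516531 to 17544533, GRCh37) and has 9 exons. Its mRNA was at 23.1, 32.6 and 29.9 CPM with siCtrl#1 and at 30.6, 25.3 and 24.3 CPM with siCtrl#2. It was at 11.5, 12.6 and 12.8 CPM with siTsg101#1 and at 14.7, 15.9 and 15.8 CPM with siTsg101#2. All 6 siTsg101 libraries lay below all other libraries. Over the 18 libraries the MVB12A values rest on 28 to 238 reads per library. With siVps28#1 MVB12A stood at 27.0, 27.4 and 33.4 CPM and with siVps28#2 at 29.7, 39.3 and 25.9 CPM, and none of these was below the nontargeting range.

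MVB12A fell by 1.04 on the log2 scale upon Tsg101 depletion, to a level 2.06-fold lower (SE 0.16, 95% interval -1.38 to -0.70, edgeR adjusted p = 5.51e-05). With siTsg101#1 the change was -1.20 and with siTsg101#2 it was -0.88. Upon Vps28 depletion it was 0.097 (95% interval -0.24 to 0.43, adjusted p = 0.741). A fall as large as that upon Tsg101 depletion was seen for 165 genes, MVB12A and TSG101 included, or 1.62% of those tested. No other gene overlaps the exons of MVB12A, and its transcript shares no stretch of 50 bases with another gene.

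MVB12A is the called subunit with an entry in the RefSeq promoter table (build GRCh38.p14), where 6 of the 9 subunits have one and VPS28, VPS37A and VPS37C do not. Both of its listed starts are shown, as the 250 bases upstream on the plus strand, since the start in use was not measured. Capitals mark the letters CCAAT and CCGGAAG, the core of a CCAAT box and of an ETS motif, on either strand. The E-box core CACGTG, which the lysosomal regulators TFEB and TFE3 bind, was also searched.
MVB12A, chr19:17405491-17405740: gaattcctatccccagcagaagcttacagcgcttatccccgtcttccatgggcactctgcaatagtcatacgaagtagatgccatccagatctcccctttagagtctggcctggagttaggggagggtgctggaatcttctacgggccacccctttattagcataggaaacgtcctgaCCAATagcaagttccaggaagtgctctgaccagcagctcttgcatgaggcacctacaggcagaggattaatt
MVB12A, chr19:17419797-17420046: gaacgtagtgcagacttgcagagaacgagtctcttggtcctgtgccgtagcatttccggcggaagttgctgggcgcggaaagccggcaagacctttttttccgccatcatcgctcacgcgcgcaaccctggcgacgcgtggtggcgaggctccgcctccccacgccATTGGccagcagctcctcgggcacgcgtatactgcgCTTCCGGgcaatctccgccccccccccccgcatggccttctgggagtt

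CCAAT was present upstream of both MVB12A starts and in 33.8% of the 12114 promoters of tested genes. CCGGAAG was present upstream of the second start only and in 15.6% of those promoters, and CACGTG was in neither, against 8.77%. Among the subunits with an entry, CACGTG was found upstream of VPS37B alone. These matches are letters in a window and say nothing of binding.

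Among the other VPS37 paralogs, none was called upon either depletion. VPS37B (chromosome 12, minus strand, 123349877 to 123380674, GRCh37) ranged from 91.6 to 142 CPM with nontargeting siRNAs (median 103 CPM), from 98.7 to 148 CPM with siTsg101 (median 114 CPM) and from 114 to 138 CPM with siVps28 (median 127 CPM). The groups overlapped. Its log2 fold change was 0.27 upon Tsg101 depletion (95% interval -0.035 to 0.58) and 0.35 upon Vps28 depletion (95% interval 0.042 to 0.66, adjusted p = 0.116), while siCtrl#2 differed from siCtrl#1 by 0.34. Exons of other genes overlap 484 bases of its transcript on the opposite strand and 172 on its own.

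VPS37C (chromosome 11, minus strand, 60897729 to 60929087, GRCh37) ranged from 44.3 to 79.0 CPM with nontargeting siRNAs, from 59.3 to 76.1 CPM with siTsg101 and from 49.5 to 76.7 CPM with siVps28. These ranges overlapped, and the range was widest with the nontargeting siRNAs, where siCtrl#2 was at -0.38 against siCtrl#1 (edgeR adjusted p = 0.258). VPS37C changed by -0.07 on the log2 scale upon Tsg101 depletion (95% interval -0.35 to 0.21) and -0.23 upon Vps28 depletion (95% interval -0.51 to 0.055).

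VPS37D (chromosome 7, plus strand, 73082161 to 73086442, GRCh37) was at 9.97, 17.8 and 11.6 CPM with siCtrl#1 and at 14.9, 10.9 and 9.25 CPM with siCtrl#2. It was at 12.3, 9.97 and 7.12 CPM with siTsg101#1, at 9.52, 6.69 and 6.81 CPM with siTsg101#2, at 8.71, 9.60 and 11.2 CPM with siVps28#1 and at 9.74, 9.42 and 13.4 CPM with siVps28#2. The siTsg101#2 group was the lowest, but the siTsg101 and nontargeting libraries overlapped, and siCtrl#1 replicate 2 was the highest of all libraries. Upon Tsg101 depletion VPS37D had a log2 fold change of -0.60 (SE 0.23, 95% interval -1.08 to -0.13) and missed the threshold (adjusted p = 0.0543), whereas it passed with the replicate number as a block (-0.61, adjusted p = 0.0466) and without a low-count filter (adjusted p = 0.0496). It also passed without siCtrl#1 replicate 1 (-0.77), siCtrl#2 replicate 1 (-0.61), siTsg101#1 replicate 1 (-0.69), siTsg101#2 replicate 1 (-0.70) or siVps28#2 replicate 3 (-0.61). Without siCtrl#1 replicate 2 it shrank to -0.36. With siTsg101#2 alone it was called (-0.75, adjusted p = 0.0481), but not once siCtrl#1 replicate 2 was left out (-0.51, adjusted p = 0.238), nor without any of 9 other libraries. That call was also lost with siCtrl#2 as the reference (-0.59, adjusted p = 0.133). Upon Vps28 depletion the log2 fold change of VPS37D was -0.32 (95% interval -0.79 to 0.15).

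The other subunits of the MVB12 position showed no called change. MVB12B, the paralog of MVB12A (chromosome 9, plus strand, 129089108 to 129269320, GRCh37), ranged from 13.2 to 24.5 CPM with nontargeting siRNAs, from 16.3 to 21.5 CPM with siTsg101 and from 13.5 to 21.1 CPM with siVps28. Its log2 fold change was 0.20 upon Tsg101 depletion (95% interval -0.18 to 0.58) and 0.073 upon Vps28 depletion (95% interval -0.31 to 0.45), so that a fall of the size seen for MVB12A lies outside both intervals.

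UBAP1, which takes the place of an MVB12 subunit in the version of ESCRT-I that sorts endosomal cargo, lies on the plus strand of chromosome 9 (34179003 to 34252521, GRCh37). It was at 29.9, 21.2 and 24.6 CPM with siCtrl#1 and at 21.0, 23.0 and 21.6 CPM with siCtrl#2. With siTsg101#1 it was at 14.7, 27.8 and 28.5 CPM and with siTsg101#2 at 24.2, 24.8 and 25.9 CPM. With siVps28#1 it was at 19.2, 25.4 and 37.3 CPM and with siVps28#2 at 29.7, 38.7 and 38.4 CPM. The siVps28#2 libraries were the highest group, although 1 of them did not exceed the highest nontargeting library, and siTsg101#1 replicate 1 was the lowest of all.

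The log2 fold change of UBAP1 was -0.041 upon Tsg101 depletion (95% interval -0.45 to 0.37) and 0.30 upon Vps28 depletion (95% interval -0.11 to 0.72, adjusted p = 0.339). With siVps28#2 it was 0.49 (adjusted p = 0.157), and it was called there with siCtrl#2 as the reference (0.70, adjusted p = 0.0495) and with the mean of both nontargeting siRNAs (0.60, adjusted p = 0.035). KIF24 overlaps 144 of the 2705 bases of the UBAP1 transcript on the opposite strand and was itself called lower upon Tsg101 depletion (-0.84, adjusted p = 0.00115) and upon Vps28 depletion (-0.68, adjusted p = 0.00922), the second of these not without siCtrl#1 replicate 1 (-0.53, adjusted p = 0.0983) or with siCtrl#2 as the reference (-0.55, adjusted p = 0.0502).

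**Figure D2:**
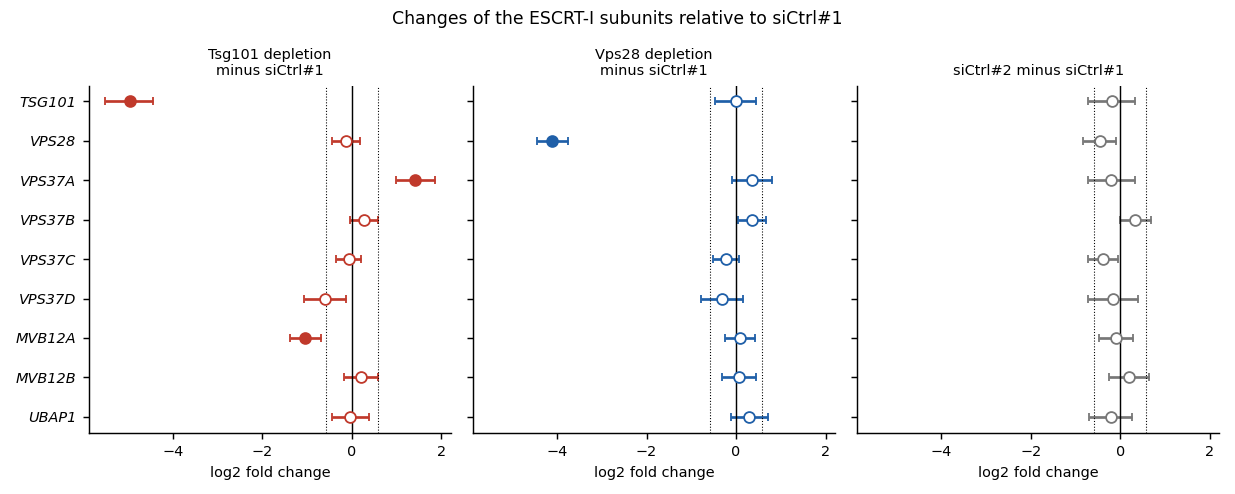
Log2 fold change of each ESCRT-I subunit relative to siCtrl#1 upon Tsg101 depletion (left), Vps28 depletion (middle) and with siCtrl#2 (right). Bars are 95% intervals of the edgeR fit, filled points were called and dotted lines mark 1.5-fold. Besides the targets, VPS37A at 1.41 and MVB12A at -1.04 are the filled points, both upon Tsg101 depletion.

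Each siRNA was also compared with siCtrl#1 on its own. The subunits called, the target left out, were 2 of 8 with siTsg101#1 (VPS37A and MVB12A, 21.8% of all genes called), 3 of 8 with siTsg101#2 (VPS37D in addition, 17.0%), 0 of 8 with siVps28#1 (8.67%) and 0 of 8 with siVps28#2 (13.3%). In the last of these, 4 subunits had an unadjusted p under 0.05 in edgeR, against 0 with siVps28#1. Between the nontargeting siRNAs 0 of 9 subunits were called, where 2.09% of all genes were, and 2 had an unadjusted p under 0.05. The siRNAs of one target did not differ by a called change in any subunit, either for TSG101, where 6.98% of all genes were called between siTsg101#1 and siTsg101#2, or for VPS28, where 0.480% were, and in both cases 0 subunits had an unadjusted p under 0.05.

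Whether a subunit responded differently to loss of TSG101 and loss of VPS28 was tested directly, as the mean of the siTsg101 groups minus the mean of the siVps28 groups. The nontargeting groups have no weight in this difference, but their libraries enter the fit that gives its SE and p-value. VPS37A was 2.08-fold higher upon Tsg101 than upon Vps28 depletion (log2 difference 1.06, SE 0.16, 95% interval 0.73 to 1.39, edgeR adjusted p = 6.14e-05). MVB12A was 2.20-fold lower (log2 difference -1.14, SE 0.14, 95% interval -1.42 to -0.85, adjusted p = 3.09e-06). These 2 of the 7 subunits that were no target (28.6%) stand beside 6.23% of all tested genes called in this comparison, and the single one higher beside 4.16%. Counting MVB12A itself and the target TSG101, only 23 genes, or 0.225% of those tested, were as far or further below in Tsg101 depletion as MVB12A. Counting VPS37A itself and the target VPS28, 1.54% were as far or further above as VPS37A.

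Both differences held within each batch. In batches 1, 2 and 3 the log2 difference was 0.96, 1.20 and 1.04 for VPS37A and -1.13, -1.21 and -1.05 for MVB12A. Of the 5 remaining subunits, UBAP1 was lower upon Tsg101 depletion in each batch (-0.34, -0.26 and -0.48), but its fitted difference of -0.34 did not pass after adjustment (95% interval -0.68 to -0.012, adjusted p = 0.177). VPS37C differed by 0.16 (95% interval -0.075 to 0.39), MVB12B by 0.13 (95% interval -0.18 to 0.43), VPS37B by -0.077 (95% interval -0.32 to 0.17) and VPS37D by -0.28 (95% interval -0.68 to 0.12).

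**Figure D3:**
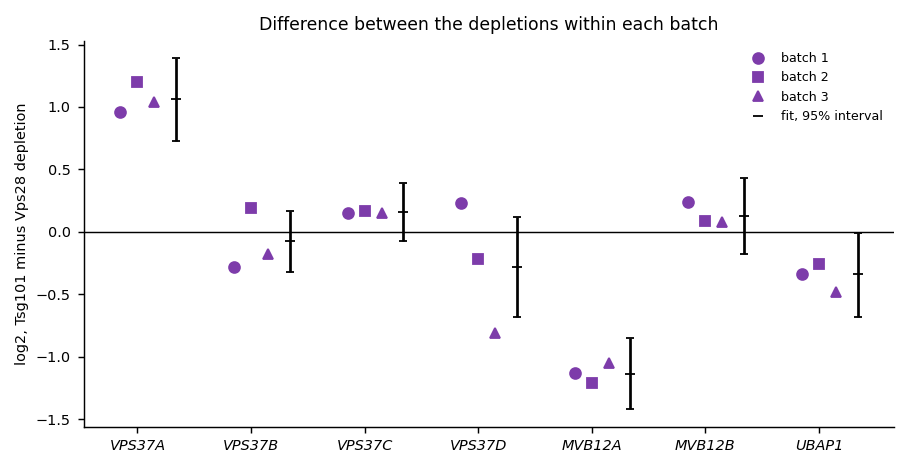
Log2 difference between Tsg101 and Vps28 depletion for the 7 subunits that were no siRNA target, within each batch (symbols) and in the edgeR fit (bar, 95% interval). VPS37A lies between 0.96 and 1.20 and MVB12A between -1.21 and -1.05 in the 3 batches, while VPS37B and VPS37D have values on both sides of 0.

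The absence of overlap gave the same subunits, but it was read from the same libraries as the calls and is no separate support. The 6 siTsg101 libraries did not overlap the 6 nontargeting libraries for 2 of 8 subunits, VPS37A and MVB12A, and for 10.7% of all tested genes. They did not overlap the 6 siVps28 libraries for 2 of 7 subunits, again VPS37A and MVB12A, and for 4.97% of genes. The siVps28 libraries overlapped the nontargeting ones for all 8 subunits other than VPS28, where 6.25% of genes did not overlap.

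**Figure D4:**
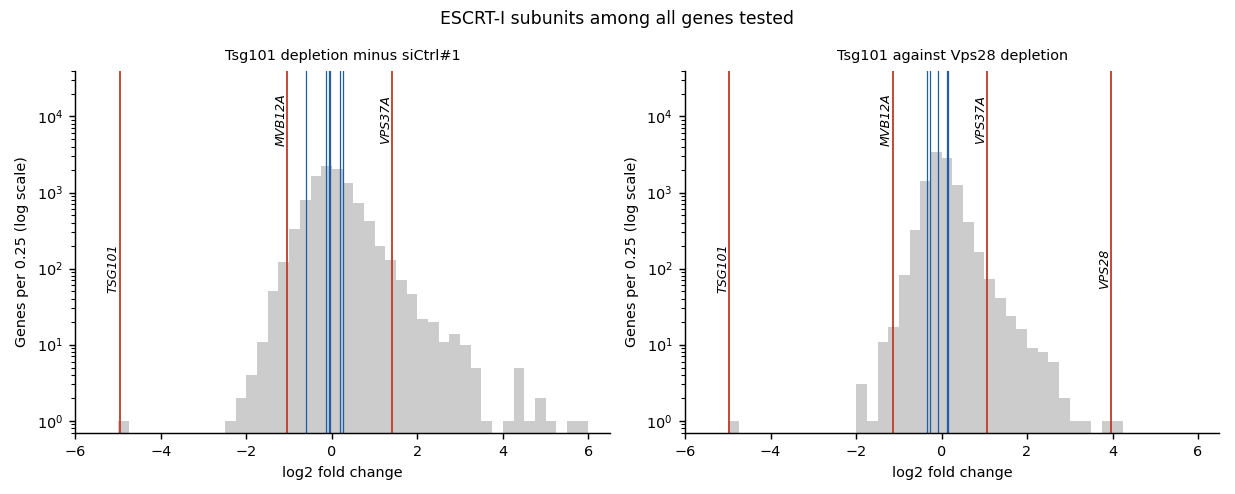
Number of tested genes by log2 fold change in steps of 0.25 on a log axis (grey), upon Tsg101 depletion (left) and in Tsg101 against Vps28 depletion (right). Vertical lines are the ESCRT-I subunits, red where named and blue for the rest. TSG101 marks the low end of both distributions, and VPS37A and MVB12A lie in opposite flanks.

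Over the 18 libraries, log2 CPM of MVB12A went with that of TSG101 (Pearson r = 0.93) and log2 CPM of VPS37A against it (r = -0.88). After the group means were subtracted, r was 0.30 and -0.36, so that most of the likeness lay between siRNA groups. For VPS37A and MVB12A themselves r was -0.83, and -0.75 after subtraction. Other pairs of subunits went as far after subtraction, TSG101 with MVB12B at -0.80 and VPS37C with MVB12A at 0.77. These correlations share libraries, groups and normalization and are given as a description. Outside the complex, the genes with the pattern most like that of VPS37A over the 18 libraries were ME2 (r = 0.95), a mitochondrial malic enzyme, SOX12 (r = 0.95), a transcription factor, and RBM26 (r = 0.94), an RNA-binding protein. Those most like MVB12A were R3HDM4 (r = 0.95), IFI27L2 (r = 0.92) and VASP (r = 0.92), a regulator of actin filaments.

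The remaining ESCRT machinery was examined as a list of 23 genes. ESCRT-0 hands cargo to ESCRT-I, while ESCRT-II, the ESCRT-III polymers and the VPS4 ATPase act after it. Upon Tsg101 depletion 3 of the 23 genes (13.0%) were called, beside 19.4% of all genes. All 3 were higher, beside 11.1%, and 0 were lower. They were HGS (log2 fold change 0.71, adjusted p = 5.28e-04) and STAM (0.78, adjusted p = 0.00154) of ESCRT-0, and CHMP1A (0.71, adjusted p = 7.24e-04), an ESCRT-III protein. The median of the list was 0.12, against -0.0087 for all genes. HGS lies on chromosome 17 (79650356 to 79670168), STAM on chromosome 10 (17686150 to 17758823) and CHMP1A on chromosome 16 (89707224 to 89724146, all GRCh37), and 614 of the 2893 bases of HGS and 42 of the 3856 of STAM overlap an antisense gene.

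HGS was at 54.7 to 81.4 CPM with nontargeting siRNAs and at 102 to 117 CPM with siTsg101, without overlap, and at 70.6 to 98.4 CPM with siVps28, which overlapped the nontargeting range. STAM was at 27.5 to 43.8 CPM, 56.3 to 79.6 CPM and 40.3 to 52.4 CPM, in the same order of groups. STAM2, the other listed ESCRT-0 gene, was not called upon Tsg101 depletion. Its groups overlapped, at 17.2 to 24.1 CPM, 15.0 to 23.3 CPM and 14.7 to 24.5 CPM. CHMP1A was at 35.9 to 53.8 CPM and 57.7 to 75.3 CPM, and with siVps28 at 37.7 to 45.0 CPM, within the nontargeting range. With siCtrl#2 as the reference the CHMP1A change was 0.58 upon Tsg101 depletion, just under 1.5-fold.

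Upon Vps28 depletion 0 of the 23 were called by edgeR, beside 12.3% of all genes, with 4 at an unadjusted p under 0.05 and 1 called by DESeq2, and the list's median was 0.17 against 0.0084 for all genes. CHMP1B, another ESCRT-III protein, passed the adjusted p at less than 1.5-fold (0.51, adjusted p = 0.0106), and was called without siCtrl#1 replicate 2 (0.59). CHMP4B, the main filament-forming ESCRT-III protein, had a log2 fold change of 0.67 at an adjusted p of 0.0504, and with the replicate block it was called (0.65, adjusted p = 0.0264), as it was without siTsg101#2 replicate 1 or 3 or siVps28#2 replicate 1 or 2 (0.67 to 0.77). It was 0.34 with siCtrl#2 as the reference and 0.49 without siVps28#2 replicate 3, the highest library at 307.5 CPM. By siRNA, CHMP4B was at 0.35 with siVps28#1 (adjusted p = 0.465), 0.99 with siVps28#2 (adjusted p = 0.0112), 0.77 with siTsg101#1 (adjusted p = 0.035) and 0.0034 with siTsg101#2. With siVps28#2 alone 2 of the 23 were called (8.70%, beside 13.3%), CHMP1B and CHMP4B. Between the depletions 1 of 23 (4.35%) was called, CHMP1A at 0.70 (adjusted p = 1.36e-04), beside 6.23% of all genes. Another 3 passed the edgeR adjusted p at less than 1.5-fold. HGS (0.42, adjusted p = 0.0123) and STAM (0.46, adjusted p = 0.0272) were higher upon Tsg101 depletion. CHMP2B, an ESCRT-III protein, was lower (-0.45, adjusted p = 0.0388). The CHMP2B mean was 132 CPM with siTsg101#1 but 203 CPM with siTsg101#2, against 215 CPM with siVps28#1 and 232 CPM with siVps28#2. The siTsg101#2 libraries (194 to 215 CPM) lay within the siVps28 range (179 to 273 CPM). Between the nontargeting siRNAs 1 of 23 was called, beside 2.09%, PTPN23 (-0.65 with siCtrl#2, adjusted p = 0.0186), a call lost without replicate 2 or 3 of either group.

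Of 11 relatives and partners of ESCRT-I subunits, 10 were on the panel and 9 could be tested, UBAP1L having too few reads. Upon Tsg101 depletion 1 of 9 (11.1%) was called, beside 19.4% of all genes, namely MGRN1, a ubiquitin ligase known to act on TSG101, on chromosome 16 (4666494 to 4740975, GRCh37). It was at 29.7, 31.3 and 35.9 CPM with siCtrl#1 and at 28.0, 32.4 and 30.1 CPM with siCtrl#2. It was at 137.9, 133.0 and 132.5 CPM with siTsg101#1 and at 44.9, 91.5 and 98.5 CPM with siTsg101#2, above all nontargeting libraries but lower and more spread with the second siRNA. With siVps28 MGRN1 ranged from 32.5 to 48.6 CPM.

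MGRN1 had a log2 fold change of 1.66 upon Tsg101 depletion (SE 0.21, edgeR adjusted p = 2.45e-06) and 0.35 upon Vps28 depletion (95% interval -0.065 to 0.76), and the difference of 1.32 between them was called (adjusted p = 2.27e-06), again as 1 of 9 beside 6.23% of all genes. Within batches it ran from 0.84 to 1.55. siTsg101#1 gave a higher level than siTsg101#2 (log2 difference 0.78, adjusted p = 0.024), which fell to 0.50 and was no longer called without siTsg101#2 replicate 1 (adjusted p = 0.13). It also lost its call without siTsg101#1 replicate 1 (0.77, adjusted p = 0.0694) or replicate 3 (0.79, adjusted p = 0.0668).

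UEVLD, whose protein carries a ubiquitin-binding domain related to that of TSG101, lies beside TSG101 on chromosome 11 (18551156 to 18610294, GRCh37). It was read at 4.92 to 6.68 CPM with nontargeting siRNAs. It was at 2.86, 6.30 and 4.89 CPM with siTsg101#1 and at 9.67, 12.8 and 8.47 CPM with siTsg101#2, so that only the second siRNA lay above the nontargeting range. The log2 fold change was -0.12 with siTsg101#1 (adjusted p = 0.804) and 0.96 with siTsg101#2 (adjusted p = 0.014, lost without siCtrl#1 replicate 1 or siTsg101#2 replicate 2), and the difference between them of -1.09 was called (adjusted p = 0.016). That call was lost without siTsg101#1 replicate 1 (-0.90, adjusted p = 0.0811), without siTsg101#1 replicate 3 (-1.10, adjusted p = 0.0735) or without siTsg101#2 replicate 2 (-0.90, adjusted p = 0.0915). It rests on 7 to 82 reads per library.

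**Figure D5:**
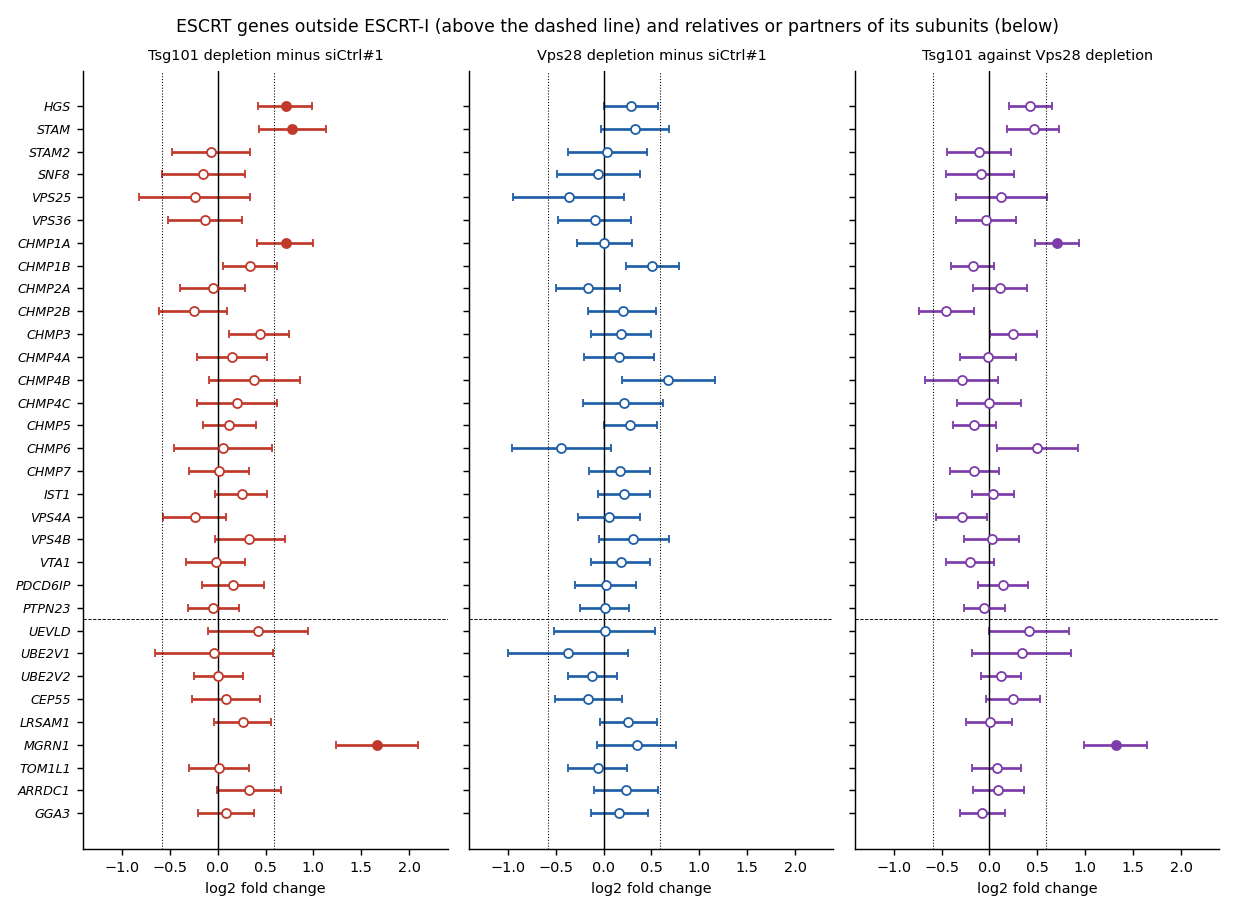
Log2 fold change with 95% interval of the 23 ESCRT genes outside ESCRT-I and of 9 relatives or partners of its subunits, upon Tsg101 depletion, upon Vps28 depletion and between the depletions. Filled points were called and dotted lines mark 1.5-fold. HGS, STAM, CHMP1A and MGRN1 are filled upon Tsg101 depletion, none upon Vps28 depletion, and CHMP1A and MGRN1 between the depletions.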

How the data were processed

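The authors made Ion AmpliSeq Transcriptome libraries, sequenced them on an Ion Proton, aligned the reads with TMAP to the panel's hg19 reference and counted them with HTSeq 0.6.0 (per the labels). The deposited counts are whole reads per RefSeq target, without normalization or filter. Counted reads were 45.40% to 46.68% of each library, and 48.23% to 49.07% had no feature and were left out. The strand setting, amplicon positions and siRNA sequences were not given in the sources used here.

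Targets with more than 100 summed counts (10632), less 419 noncoding ones, were tested with edgeR 4.0.16 under R 4.3.3 (TMM, quasi-likelihood test, 6 siRNA groups in one fit). The reference was siCtrl#1, as in the study's methods, where the test itself was DESeq2 1.18.1. Log2 CPM used a prior count of 2. Reads carry no molecular identifiers, so the spread between replicates, not counting error alone, was used. Replicate numbers are the batches in the labels and pair the libraries (deviations of same-numbered libraries correlated by 0.145 on average, over 0.1 in 30 of 45 pairs). Alternatives were DESeq2 1.42.0, RLE size factors, other filters, other references, the block, the adjusted p alone, only the groups compared, and leaving out each library.

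All 9 subunits are named, with the listed genes called in a depletion or between depletions and the 3 genes most like VPS37A and MVB12A by Pearson r over 18 libraries. STAM2, CHMP1B, CHMP2B, CHMP4B, PTPN23, UEVLD and KIF24 were named after their values were seen. Members and lists were chosen with earlier results of these data known. Gene positions and overlaps are from GENCODE on GRCh37, and 20228 targets matched a symbol.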

Additional observations from a re-analysis of the deposited data

Results flagged for a closer look

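Among the ESCRT-I subunits and the listed ESCRT genes, relatives and partners, the difference between Tsg101 and Vps28 depletion was called for 6 genes. The log2 difference was -4.97 for TSG101 and 3.97 for VPS28, the targets themselves. Among the other subunits it was 1.06 for VPS37A and -1.14 for MVB12A, with the sign present in each of the 3 batches. Outside the complex it was 0.70 for CHMP1A and 1.32 for MGRN1. Between the siRNAs against TSG101, siTsg101#1 minus siTsg101#2, the difference was -1.09 for UEVLD and 0.78 for MGRN1, and neither of these calls held with every library left out in turn.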

How the results depend on the processing

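Single genes were recomputed under at most 27 of the 28 alternatives, the adjusted p alone being left out. Of these 5132 values, 5082 stayed on their side of the thresholds, 27 lost and 22 gained a call, and 216 uncalled values changed sign. 1 value reversed, PTPN23 upon Tsg101 depletion, from -0.043 to 0.61 with siCtrl#2 as the reference. Every alternative that gave a value kept the calls of VPS37A (1.23 to 1.63) and MVB12A (-1.18 to -0.94) upon Tsg101 depletion and of both between the depletions. The subunits called upon Tsg101 depletion became 3 with the replicate block, without a low-count filter and in 5 fits without 1 library, through VPS37D (-0.77 to -0.36 over libraries left out). The block changed no other call of a subunit.

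In the ESCRT list, the count upon Vps28 depletion went from 0 to 1 with DESeq2, no filter on low counts, a minimum of 10 counts per library, siCtrl#2 as the reference, the replicate block, the adjusted p alone and only the groups compared (0 to 1 over libraries left out, 1 in 5 of them). The gene was CHMP4B in most of these. It was PTPN23 with siCtrl#2 as the reference (0.66, edgeR adjusted p = 0.00163) and CHMP1B with the adjusted p alone. Between the depletions it went from 1 to 4 with the adjusted p alone, and for siCtrl#2 from 1 to 0 with only the groups compared (0 to 1 over libraries left out). Over all genes, Vps28 depletion called 1252 genes and 799 with siCtrl#2 as the reference, the comparison of the depletions 636 and 1207 with the adjusted p alone, and siVps28#1 885 and 450 with siCtrl#2 as the reference and 523 without siCtrl#1 replicate 1. siCtrl#2 called 213, and 359 without a low-count filter, 327 with the block, 89 with only the groups compared and 97 to 440 over libraries left out. The 440 came without siCtrl#2 replicate 1 and the 97 without siCtrl#2 replicate 3. TSG101 could not be tested at 10 counts in every library, since 1 library had 8. The cause of these changes was not tested. Low counts limit the precision of VPS37A, MVB12A, VPS37D and UEVLD, whose lowest libraries had 20, 28, 30 and 7 reads.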
